A study of Mus musculus with 8 samples.

Results

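The basal and luminal keratins of PyMT mammary tumour cells were described in CD90pos and CD90neg cells with and without interferon gamma (IFNg). The members were the 7 genes Krt5, Krt14 and Krt17 (basal) and Krt8, Krt18, Krt19 and Krt7 (luminal), chosen by name from the 12964 genes of the deposited table, and all 7 were found there. PyMT cells are a model of breast cancer in which the middle T antigen of mouse polyomavirus drives mammary tumours in the mouse. The 4 groups were CD90pos cells with IFNg, CD90pos control cells, CD90neg cells with IFNg and CD90neg control cells, with 2 RNA sequencing libraries each, an A and a B library. All 4 groups came from PyMT cells of primary mammary tumour origin that the labels give as genotype WT. All were grown in a DMEM/F12 medium with serum, insulin and EGF, and were sorted by flow cytometry for CD90, the surface protein encoded by Thy1. IFNg was given at 10 IU per ml for 24 h, and the control cells did not receive it. The labels do not say whether a letter stands for a culture, a tumour or a day, nor whether the cells were of 1 clone, so a p-value here speaks only of the spread between libraries, whose source may be technical.

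Keratins are the intermediate filament proteins of epithelial cells. A filament is built from obligate pairs of a type I and a type II chain, and each epithelial layer has its own pairs. In the mammary gland the basal, myoepithelial layer is known for the pair of Krt5 (type II) and Krt14 (type I), and for Krt17 (type I), which is also known as a keratin of wounded and hyperproliferative skin. The luminal layer is known for the pair of Krt8 (type II) and Krt18 (type I), with Krt7 (type II) and Krt19 (type I) beside it. Keratins are therefore used to tell basal from luminal identity in mammary tumours, and Krt5 and Krt14 mark the basal side of that scale.

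The genes lie in the mouse keratin clusters, the type I genes on chromosome 11 and the type II genes on chromosome 15, where Krt18 is the type I gene set beside Krt8. On GRCm38, as the deposited table gives them, Krt5 spans chr15:101707070-101712891 on the minus strand, Krt8 chr15:101996711-102004342 on the minus strand, Krt18 chr15:102028216-102032026 on the plus strand and Krt7 chr15:101411043-101430313 on the plus strand. Krt14 spans chr11:100203162-100207548, Krt17 chr11:100256217-100261029 and Krt19 chr11:100140810-100148665, all on the minus strand. The promoters of Krt18, Krt8 and Krt5 are shown because the results turn on these genes: with all 8 libraries, Krt18 was the member that passed a test for IFNg, Krt8 is its partner, and Krt5 was the member that passed between the populations. The sequences are RefSeq promoters on GRCm38.p6, 250 bases before to 50 after the annotated start, written 5′ to 3′ on the strand of the gene. The windows were chr15:102027966-102028265 for Krt18, chr15:102004293-102004592 for Krt8 and chr15:101712856-101713155 for Krt5. Capitals mark matches to TATAAA on either strand, which overlap each other in Krt8 and are not found in the windows of Krt18 and Krt5.
Krt18: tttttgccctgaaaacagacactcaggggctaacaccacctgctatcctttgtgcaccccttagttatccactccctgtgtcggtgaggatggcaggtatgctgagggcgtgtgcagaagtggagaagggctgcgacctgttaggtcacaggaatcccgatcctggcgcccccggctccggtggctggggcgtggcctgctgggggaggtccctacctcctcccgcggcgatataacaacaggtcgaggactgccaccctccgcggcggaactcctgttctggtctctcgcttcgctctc
Krt8: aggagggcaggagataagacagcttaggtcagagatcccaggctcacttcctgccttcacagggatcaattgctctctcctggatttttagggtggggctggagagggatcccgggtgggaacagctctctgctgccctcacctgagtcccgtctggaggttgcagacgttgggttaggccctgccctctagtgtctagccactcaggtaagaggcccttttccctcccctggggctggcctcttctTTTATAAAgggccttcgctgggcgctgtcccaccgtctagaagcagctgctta
Krt5: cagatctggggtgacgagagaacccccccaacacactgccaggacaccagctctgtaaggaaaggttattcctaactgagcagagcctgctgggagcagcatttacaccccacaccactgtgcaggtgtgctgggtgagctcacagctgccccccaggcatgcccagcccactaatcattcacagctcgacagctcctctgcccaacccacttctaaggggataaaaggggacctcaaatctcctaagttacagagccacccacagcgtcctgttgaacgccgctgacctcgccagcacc

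Promoter entries were matched for 5 of the 7 members (Krt5, Krt14, Krt8, Krt18 and Krt7), and not for Krt17 and Krt19. The RefSeq start site lay at or within 14 bases of the gene start in the deposited table for Krt5, Krt8 and Krt18, but 1518 bases inside the gene for Krt14 and 1360 bases inside it for Krt7, so those 2 windows do not cover the table's gene start. Both strands of each window were searched for the core of the interferon-stimulated response element that IRF factors bind, GAAA, 2 bases of any kind and GAAA. None of the 5 windows held it, whereas 3.443% of the 32851 mouse promoters of the same length did. The AP-1 motif TGANTCA (7.808% of promoters) and CCAAT (37.41%) were also not found in the 5 windows. TATAAA was found in Krt8 (13.62% of promoters) and GGGCGG, the GC box, in Krt7 (35.66%). A match is a description of the letters, and the lack of one in a window of this length says nothing of the factor.

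The libraries held between 31243646 and 40899909 reads, recovered from the deposited normalized values, and 3 reads corresponded to between 2.55 and 3.37 normalized reads. Thy1, the gene of the sort marker, lay between 283 and 3936 normalized reads in the 4 CD90pos libraries and between 16.6 and 65.5 in the 4 CD90neg libraries. Irf1, a transcription factor gene that IFNg induces, lay between 23340 and 30453 in the 4 IFNg libraries and between 600 and 2172 in the 4 control libraries. Mitochondrially encoded genes took from 0.670% (CD90pos control B) to 2.31% (CD90pos control A) of the values. The 8 libraries split by letter: the difference between B and A correlated across genes between any 2 groups, with coefficients from 0.779 to 0.920. Values are therefore given by letter throughout. Leukocyte markers summed to between 943 and 3908 normalized reads over 8 of 20 listed genes. Defining ones such as Ptprc and Cd3e were absent from the deposited table, as were Pecam1 and Cdh5 of endothelium. In such bulk samples, fewer cells of a type and less RNA per cell cannot be told apart.

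All 7 keratins were far above the detection limit, and the luminal pair Krt18 and Krt8 ranked among the genes with the most reads. Together the 7 genes took 2.66% (B) and 1.54% (A) of the normalized reads in CD90pos IFNg cells, 2.30% and 0.750% in CD90pos control cells, 2.65% and 1.23% in CD90neg IFNg cells, and 2.47% and 1.04% in CD90neg control cells. Krt18 was the gene with the most reads in 3 of the 4 B libraries and ranked 4 in CD90pos control B. In the A libraries it ranked 3 in CD90pos IFNg, 17 in CD90pos control, 4 in CD90neg IFNg and 15 in CD90neg control cells. Krt8 ranked 2 or 3 in the B libraries, and in the A libraries it ranked 5 in CD90pos IFNg, 21 in CD90pos control, 7 in CD90neg IFNg and 10 in CD90neg control cells.

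Divided by the length of the longest annotated transcript, the level of Krt18 averaged 214053 ± 84573 normalized reads per kb in CD90pos IFNg cells, 124472 ± 83799 in CD90pos control cells, 198822 ± 124461 in CD90neg IFNg cells and 146028 ± 97892 in CD90neg controls (SD, n = 2 each). Krt8 followed, with group means between 91678 and 126539 per kb. Krt17 and Krt7 came next, Krt17 with means between 24595 and 41617 per kb and Krt7 with means between 21289 and 29011, and they changed places: Krt17 stood above Krt7 in both CD90pos groups and below it in both CD90neg groups. Krt14 (6119 to 9749 per kb) and Krt19 (6057 to 7457) were close to each other, and Krt5 was last in every group (279 to 3136). These SDs mostly hold the difference between the letters, which both genes of a pair share, so the order was also read within libraries. Krt18 was above Krt8, Krt8 above Krt17, and Krt19 above Krt5 in all 8 libraries. Krt17 was above Krt7 in 5 of the 8 libraries and Krt14 above Krt19 in 4, and each of these pairs differed by less than the larger of their SDs in every group, so the order within these pairs was not resolved. The longest transcript of Krt7 has 4094 nt and a coding part of 1371 nt, so its level per kb depends on which length is used more than that of the other members.

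Counting reads to keratin genes is limited where sequences are shared. Of the 50-base words of its transcript, Krt8 shared 26.93% with the pseudogene Krt8-ps, Krt14 shared 14.37% with Krt16 and Krt17, Krt5 shared 8.52% with Krt6a and other genes, and Krt17 shared 3.995%. Krt18 shared 0.7205%, and Krt19 and Krt7 shared 0. Krt8-ps itself held between 78.8 and 304 normalized reads, far below Krt8. Krt5, Krt8 and Krt7 also overlap a gene on the opposite strand, and the library kit preserves strand, with the strand setting of the counting not given in the sources used here.

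Among the basal members, Krt5 varied most. Krt5, the type II partner of the basal pair, had 13452 normalized reads in CD90pos IFNg B and 328 in CD90pos IFNg A, 13087 and 393 in CD90pos control B and A, 3170 and 153 in CD90neg IFNg B and A, and 1131 and 94.7 in CD90neg control B and A. Every B library was above every A library, and within each letter both CD90pos libraries were above both CD90neg libraries. Krt14, the type I partner of Krt5, had 22960 (B) and 6746 (A) in CD90pos IFNg, 30236 and 2872 in CD90pos control, 14650 and 6130 in CD90neg IFNg, and 20211 and 5328 in CD90neg control cells. Krt17 had 80868 (B) and 39202 (A), 113580 and 15517, 46005 and 30288, and 63708 and 16749 in the same 4 groups. For Krt14 and Krt17 the CD90pos control group held both the highest and the lowest of the 8 libraries, so that all groups overlapped.

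**Figure D1:**
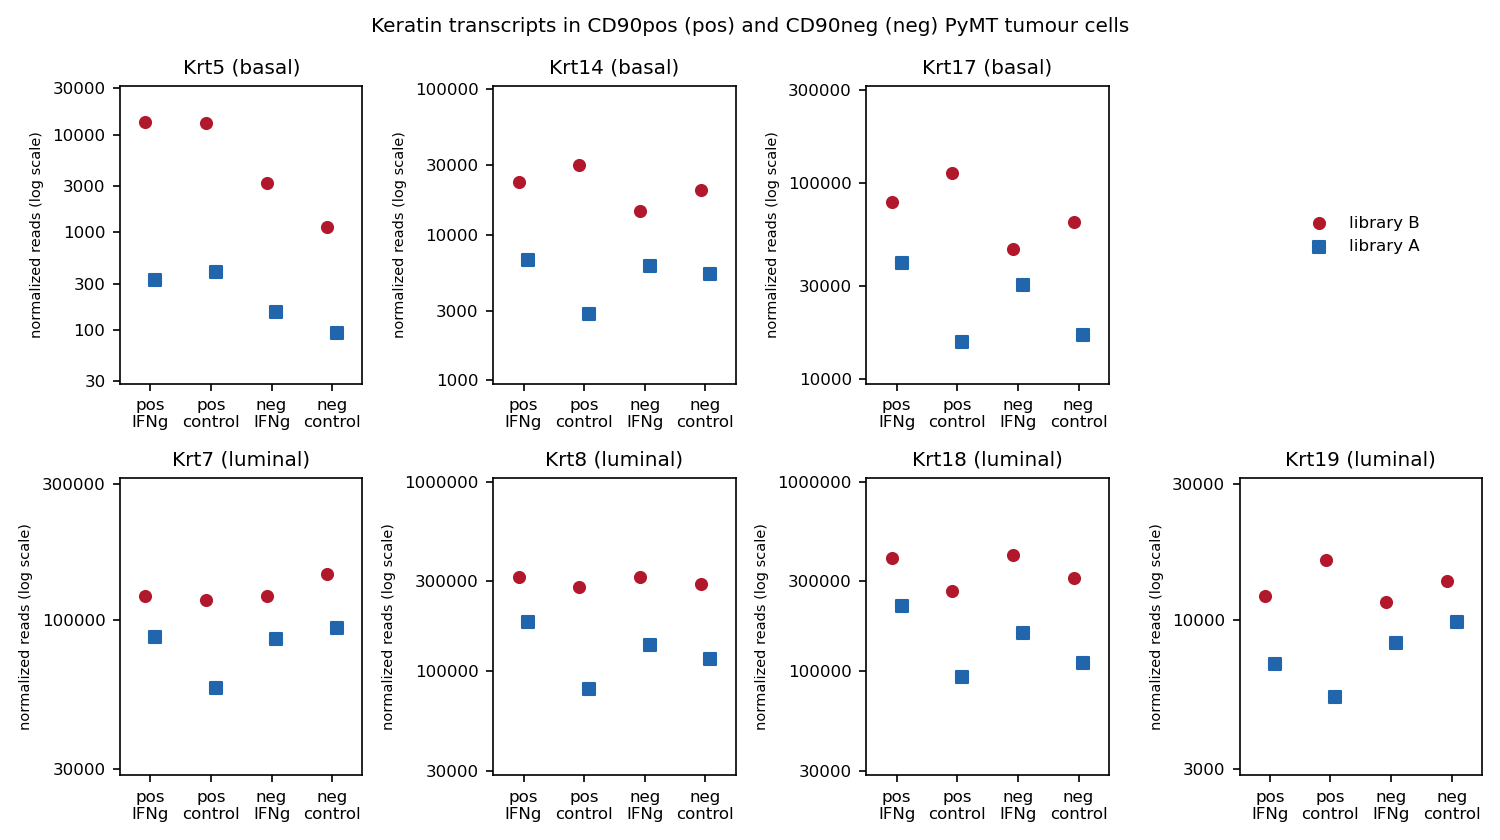
Normalized reads (log scale) of the 7 keratins in the 8 libraries, by group, with circles for B and squares for A libraries. The B library lies above the A library in every group and gene, by most for Krt5, which reaches 13452 in CD90pos IFNg B and 94.7 in CD90neg control A.

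Among the luminal members, Krt18, the type I partner of Krt8, had 393529 (B) and 221659 (A) normalized reads in CD90pos IFNg, 264016 and 93717 in CD90pos control, 412174 and 159240 in CD90neg IFNg, and 309311 and 110373 in CD90neg control cells. Within each letter and population the IFNg library was the higher one. Krt8 had 312660 (B) and 182867 (A), 277798 and 81212, 314509 and 137167, and 289471 and 116212 in the same 4 groups, again with the IFNg library higher within each letter. Krt7, a type II keratin of glandular epithelium, had 120917 (B) and 87223 (A), 116818 and 57497, 120864 and 85402, and 144050 and 93491. On average over the groups its B libraries differed least from its A libraries, although in both CD90neg groups Krt19 differed less. Krt19, a type I keratin that lacks a tail domain, had 12093 (B) and 6998 (A), 16204 and 5358, 11497 and 8291, and 13664 and 9839. IFNg and control libraries of Krt19 and of Krt7 were not ordered the same way in both populations.

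In CD90pos cells, IFNg libraries had more Krt18 and Krt8 than control libraries within both letters. For Krt18 the ratio of IFNg to control was 1.49 within B and 2.37 within A, a mean log2 fold change of 0.91 (SE 0.78). For Krt8 the ratio was 1.13 within B and 2.25 within A, a log2 fold change of 0.67 (SE 0.78), and for Krt7 it was 1.04 and 1.52, a log2 fold change of 0.33 (SE 0.42). The SEs in this paragraph are from a fit that ignores the letter, so they include the difference between the letters. The basal keratins had no common direction over the letters: Krt14 had log2 differences of -0.40 within B and 1.23 within A, Krt17 of -0.49 and 1.34, and Krt5 of 0.04 and -0.26. Krt19 likewise had -0.42 within B and 0.39 within A. So 3 of the 7 members, Krt18, Krt8 and Krt7, were higher in both letters and 0 were lower in both, where 37.1% of all genes were higher in both and 37.5% lower in both.

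Without regard to letter, the 2 IFNg libraries of every member overlapped the 2 control libraries: 0 of the 7 members had groups that did not overlap, against 24.2% (higher) and 23.8% (lower) of all genes. With limma over all 12962 genes tested, 0 of the 7 members passed an adjusted p of 0.05 (4.21% of all genes did) and 0 passed an unadjusted p of 0.05. The count was also 0 with edgeR (3.23% of all genes) and with DESeq2 (15.8%) on the recovered reads. The adjusted p of Krt18 was 0.574. When the letter entered the limma fit as a block, 1 member, Krt18, rose with IFNg (log2 fold change 0.91, SE 0.23, 95% interval 0.37 to 1.45, adjusted p = 0.0278), where 27.6% of all genes passed. Krt8 had the same direction, with an adjusted p of 0.0944 and an unadjusted 95% interval of 0.06 to 1.28. edgeR with the block also passed Krt18 (adjusted p = 0.0179), with 27.7% of all genes. The blocked limma call of Krt18 was lost without CD90pos IFNg A (log2 fold change 0.60, adjusted p = 0.242), without CD90pos control A (0.78, 0.0771), without CD90pos IFNg B (1.22, 0.0556), without CD90neg IFNg A (0.0599) and without CD90neg IFNg B (0.0570). Which members passed changed with the library left out, and the share of all genes that passed in these fits is not given here. Without CD90pos control B the log2 fold changes were 1.29 for Krt14, 1.01 for Krt8, 1.04 for Krt18 and 0.57 for Krt7. Without CD90pos control A that of Krt19 was -0.53. Each omission leaves 1 library in a group, so these values are descriptions.

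In CD90neg cells, IFNg libraries had more Krt18, Krt5 and Krt8 than control libraries within both letters. The IFNg to control ratio of Krt18 was 1.33 within B and 1.44 within A (log2 fold change 0.47, 95% interval with the letter block -0.07 to 1.01, adjusted p = 0.432). For Krt5 it was 2.80 within B and 1.62 within A (log2 fold change 1.09, interval with the block 0.15 to 2.02, adjusted p = 0.265), on levels of 3170 and 153 normalized reads with IFNg against 1131 and 94.7 in controls. Krt8 was 1.09 and 1.18 times its control level, a log2 fold change of 0.18 (SE 0.78 without the letter block). Krt19 and Krt7 were lower in both letters, with log2 fold changes of -0.25 and -0.19. Krt14 (log2 fold change -0.13) and Krt17 (0.19) differed in direction between the letters. Higher in both letters were 3 of the 7 members (29.9% of all genes), lower in both 2 (33.8%).

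None of the 7 members passed in CD90neg cells: limma gave 0 at an adjusted p of 0.05, where 0.64% of all genes passed, 0 at an unadjusted p of 0.05, and edgeR (0.478% of all genes) and DESeq2 (2.83%) gave 0 as well. With the letter block the count was also 0 (4.14% of all genes passed), with 1 member, Krt5, at an unadjusted p under 0.05. The IFNg and control libraries overlapped for 7 of 7 members, whereas 14.3% of all genes were separated upwards and 14.7% downwards.

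**Figure D2:**
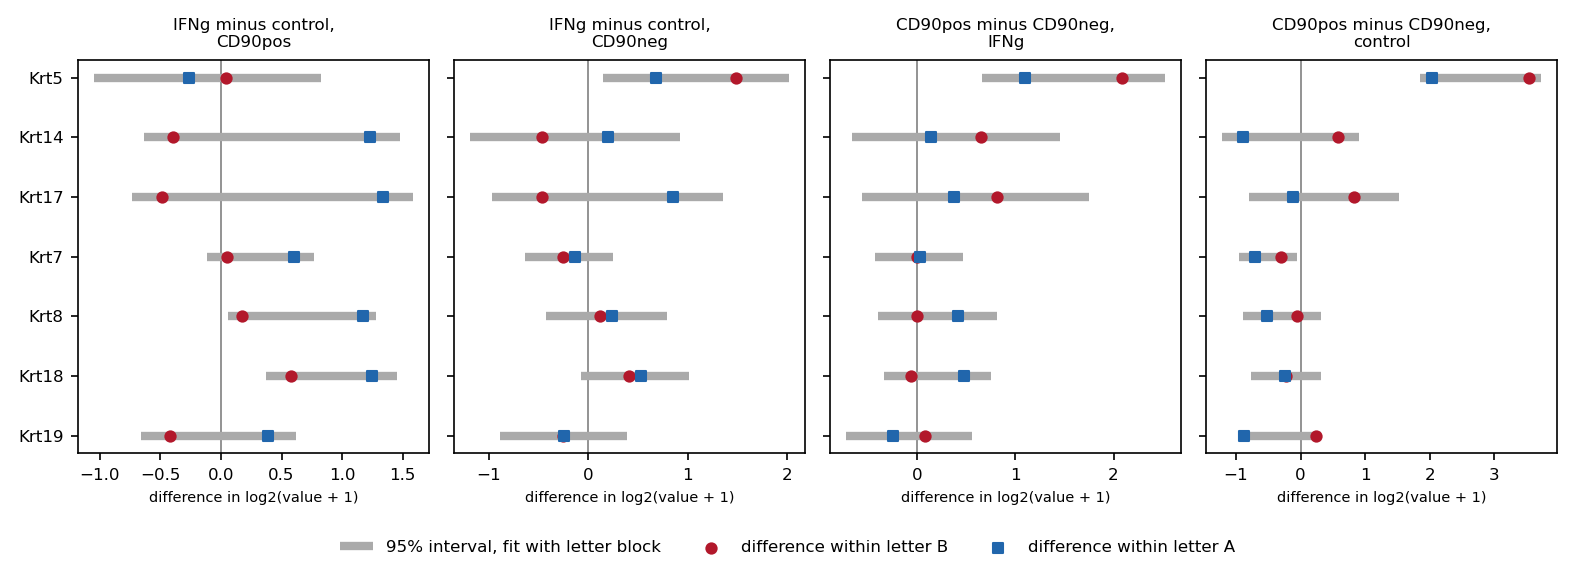
Differences in log2(normalized reads + 1) for the 7 keratins in 4 comparisons, with circles for the difference within letter B, squares for that within letter A, and bars for the 95% interval of the limma fit with the letter as a block. Krt18 with IFNg in CD90pos cells (0.37 to 1.45) and Krt5 between CD90pos and CD90neg control cells (1.85 to 3.72) are the differences that passed after adjustment over all genes.

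Between the populations in control medium, Krt5 was the member that differed most. Krt5 was 11.6 times as high in CD90pos as in CD90neg cells within B (13087 against 1131 normalized reads) and 4.15 times as high within A (393 against 94.7), a mean log2 difference of 2.79 (SE 2.67). Its basal partner Krt14 differed in direction between the letters: CD90pos cells had 1.496 times the CD90neg level within B and 0.54 times within A, a log2 difference of -0.16 (SE 1.29). Krt17 was 1.78 times as high within B and 0.93 times within A, a log2 difference of 0.36 (SE 1.06). The SEs in this paragraph are from the fit without the letter block and include the difference between the letters. The luminal members were at or below the CD90neg level on average: Krt7 with a log2 difference of -0.50 (-0.30 within B, -0.70 within A), Krt19 with -0.32, Krt8 with -0.29 and Krt18 with -0.23. Krt14 was lower on average in the log2 fit but higher with edgeR (0.38) and DESeq2 (0.37).

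In this comparison 0 of the 7 members passed with limma (0% of all genes did), with 0 members and 1898 genes at an unadjusted p under 0.05. The members' count was 0 with edgeR, which passed 0% of all genes, and 0 with DESeq2, which passed 9.01% of the genes it gave an adjusted p. With the letter block Krt5 was higher in CD90pos control cells (log2 difference 2.79, SE 0.39, interval 1.85 to 3.72, adjusted p = 0.0288), where 11.2% of all genes passed. Krt7 had an interval of -0.95 to -0.06 and an adjusted p of 0.126. edgeR with the block also passed Krt5 (adjusted p = 0.0321), with 10.6% of all genes. The blocked limma call of Krt5 was lost without any 1 of 7 of the 8 libraries: without CD90pos control B (2.47, adjusted p = 0.05002, just above the threshold), CD90neg control B (2.11, 0.0913), CD90neg control A (3.47, 0.121), CD90pos IFNg B (0.0832), CD90pos IFNg A (0.0836), CD90neg IFNg B (0.0759) or CD90neg IFNg A (0.0761). It was kept without CD90pos control A (3.10, adjusted p = 0.0277). Without CD90pos control B, log2 differences were -0.82 for Krt19 and -0.75 for Krt7, both lower in CD90pos cells, with 1 library left in that group. The share of all genes that passed in these fits is not given here. In both letters 1 member was higher (Krt5) and 3 were lower (Krt8, Krt18 and Krt7), where 32.7% and 32.2% of all genes were. Without regard to letter, 0 of the 7 members had CD90pos control libraries separated from CD90neg control libraries, against 19.8% (higher) and 17.6% (lower) of all genes.

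With IFNg, Krt5 was again the member that differed most between the populations. Krt5 was 4.24 times as high in CD90pos as in CD90neg IFNg cells within B and 2.14 times within A. The log2 difference was 1.59 (SE 2.67 without the letter block, interval with the block 0.65 to 2.53). All 3 basal members were higher in CD90pos cells within both letters, with Krt14 at 1.57 and 1.10 times and Krt17 at 1.76 and 1.29 times the CD90neg level within B and A. Krt7 had nearly equal levels (1.0004 times within B and 1.02 within A), and the log2 differences of Krt8, Krt18 and Krt19 were 0.20, 0.21 and -0.09. Members higher in both letters numbered 4, the 3 basal ones and Krt7, against 26.1% of all genes, and 0 were lower in both (26.9%).

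None of the 7 passed between the IFNg groups, with limma (0% of all genes), edgeR (0%) or DESeq2 (0.00771%), and 0 members had an unadjusted p under 0.05 in these fits. With the block the counts were again 0 members and 0% of all genes, and Krt5 had an unadjusted p of 0.00526. The libraries of the 2 populations overlapped for all 7 members, whereas 7.03% of all genes were separated upwards and 6.97% downwards. The difference between the populations in their IFNg effect was tested as an interaction. With limma 0 of 7 members passed (0% of all genes), as with edgeR (0%) and DESeq2 (3.36% of the genes it gave an adjusted p), and 0 members had an unadjusted p under 0.05 with or without the block. The interaction of Krt5 was -1.20 on the log2 scale (adjusted p = 0.350 with the block), that of Krt14 0.55 (0.715) and that of Krt7 0.52 (0.387). The comparisons of IFNg effects and of populations share libraries, so their values are not independent of each other.

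The ratio of basal to luminal keratins was formed in each library from normalized reads per kb, as the sum over Krt5, Krt14 and Krt17 per 100 of the sum over Krt7, Krt8, Krt18 and Krt19. It was 15.2 (B) and 10.8 (A) in CD90pos IFNg cells, 26.6 and 9.57 in CD90pos control cells, 8.20 and 11.2 in CD90neg IFNg cells, and 13.1 and 8.46 in CD90neg control cells. CD90pos control B stood apart with the highest ratio, and the other 7 libraries lay between 8.20 and 15.2. With IFNg this summed ratio was lower within B and higher within A in both populations: the log2 ratio differed by -0.80 (B) and 0.17 (A) in CD90pos cells and by -0.68 and 0.41 in CD90neg cells. CD90pos minus CD90neg was 0.89 (B) and -0.06 (A) with IFNg and 1.02 and 0.18 in control cells. The mean differences of -0.32, -0.14, 0.42 and 0.60 for these 4 comparisons were all below the SD of 0.62 between the libraries of a group. That SD comes from 1 B and 1 A library per group, so it holds the difference between the letters. It is not the error of differences taken within a letter.

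The sums were carried by few genes. Krt17 made up 72.6% to 86.0% of the basal sum per kb, and Krt18 46.5% to 59.2% and Krt8 33.2% to 38.9% of the luminal sum. Krt5 made up 8.53% (B) and 0.508% (A) of the basal sum in CD90pos IFNg cells, 6.14% and 1.51% in CD90pos control, 3.63% and 0.300% in CD90neg IFNg and 0.962% and 0.308% in CD90neg control cells. When each gene counted equally, as the mean log2 value of the basal minus that of the luminal members, several differences changed size or sign. IFNg minus control was then -0.38 (B) and -0.08 (A) in CD90pos cells, lower within both letters, and 0.18 and 0.48 in CD90neg cells, higher within both. CD90pos minus CD90neg was 1.18 (B) and 0.37 (A) with IFNg and 1.73 and 0.93 in control cells, with means of 0.77 and 1.33, against 0.42 and 0.60 with the summed reads. The SD between libraries of a group, which again holds the difference between the letters, was 1.27 on this measure. The mean of 1.33 in control cells was above it, and the other means were below it. In the summed ratio without Krt17, IFNg minus control was -0.64 (B) and 0.0011 (A) in CD90pos and -0.55 and -0.11 in CD90neg cells, and CD90pos minus CD90neg was 1.005 and -0.24 with IFNg and 1.10 and -0.35 in control cells. The direction of the basal to luminal ratio with IFNg thus depended on how the genes were weighted.

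**Figure D3:**
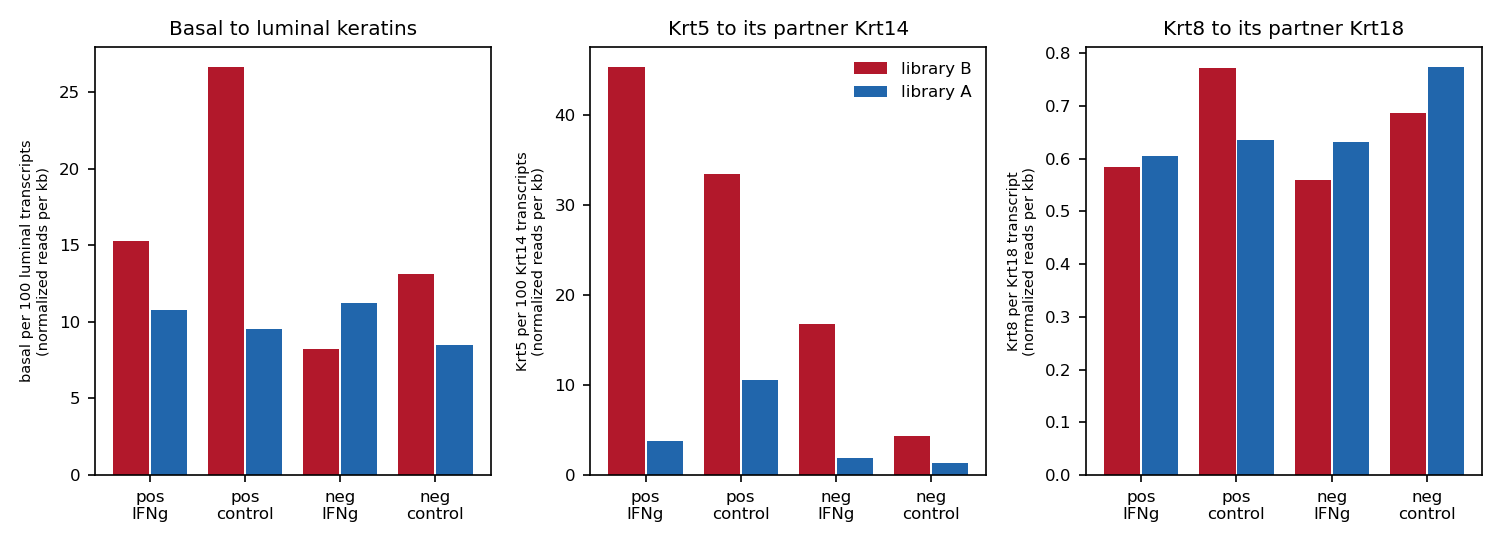
Ratios of keratin levels (normalized reads per kb) in the 8 libraries, by group, with 1 bar per library: basal per 100 luminal, Krt5 per 100 Krt14, and Krt8 per Krt18. CD90pos control B has the highest basal to luminal ratio (26.6), Krt5 per 100 Krt14 runs up to 45.3 in CD90pos IFNg B, and Krt8 per Krt18 stays between 0.560 and 0.773.

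The partner ratios behaved differently in the basal and the luminal pair. Per 100 Krt14, Krt5 had 45.3 (B) and 3.76 (A) in CD90pos IFNg cells, 33.5 and 10.6 in CD90pos control cells, 16.7 and 1.93 in CD90neg IFNg cells, and 4.32 and 1.37 in CD90neg control cells. Within each letter both CD90pos libraries exceeded both CD90neg libraries, and Krt5 was below its partner in all 8 libraries. Krt8 per Krt18 was 0.583 (B) and 0.605 (A) in CD90pos IFNg, 0.772 and 0.636 in CD90pos control, 0.560 and 0.632 in CD90neg IFNg, and 0.687 and 0.773 in CD90neg control cells. The ratio was lower with IFNg in 4 of the 4 comparisons within letter and population, as the increase of Krt18 exceeded that of Krt8 in each. These ratios are descriptions with no test.

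The largest differences of the 7 members were between libraries of the same group. Averaged over the 4 groups, letter B exceeded letter A by a log2 difference of 4.58 for Krt5 (SE 0.28), 2.09 for Krt14 (SE 0.31), 1.61 for Krt17 (SE 0.35), 1.30 for Krt18 (SE 0.16), 1.27 for Krt8 (SE 0.18), 0.83 for Krt19 (SE 0.19) and 0.65 for Krt7 (SE 0.13). All 7 members passed in the blocked limma fit, with adjusted p from 0.000102 (Krt5) to 0.0155 (Krt19), where 36% of all genes passed and 18.9% passed as higher in B. All 7 also passed with edgeR and the block, as did 35.3% of all genes. All 4 B libraries lay above all 4 A libraries for each of the 7 members, as they did for 13.9% of all genes, while 13.1% had all 4 B libraries below. The call of Krt17 was lost without CD90neg control A (1.51, adjusted p = 0.0572) or CD90neg control B (0.0563), which left 6. The comparison of letters was added after the data were seen to split that way, and what differs between the letters besides RNA levels is not stated in the labels.

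On average over the groups the difference between the letters was largest for the 3 basal keratins, but the order of the genes depended on the group. Krt5 in the B library was 41.0 times the A library in CD90pos IFNg, 33.3 times in CD90pos control, 20.7 times in CD90neg IFNg and 11.9 times in CD90neg control cells. In CD90neg IFNg cells Krt18 (2.59 times) and Krt8 (2.29) exceeded Krt17 (1.52), and Krt18 also exceeded Krt14 (2.39). Krt7 was 1.39 to 2.03 times as high, and Krt19, with 1.39 times in each CD90neg group, was below Krt7 there (1.42 with IFNg and 1.54 in control cells). The difference ran through other genes of the gland's layers too, on the log2 scale. Between the letters 67.7% of the basal and 72.4% of the luminal list passed, against 36% of all genes. Of 31 measured basal partners of the keratins, 17 were higher in B and 4 lower, with the smooth muscle genes Myh11 (6.51), Acta2 (6.10) and Tagln (5.88) and the basal factor Trp63 (1.70) higher and the mesenchymal filament gene Vim (-2.01) lower. Of 29 luminal genes, 18 were higher in B and 3 lower, with the alveolar factor Elf5 (5.69), the milk protein gene Ltf (5.89) and the adhesion gene Epcam (0.67) higher and the growth factor gene Areg (-3.35) lower.

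Markers of other cells also passed between the letters, where 36% of all genes did. The shares were 62.5% of the measured leukocyte, 56.2% of the fibroblast and 75% of the endothelial and pericyte markers. Leukocyte markers, 8 of 20 measured, were lower in B for 5 and higher for 0, with the macrophage genes Lyz2 (-5.07) and Tyrobp (-4.17), and their sum ranged from 943 to 1589 normalized reads in B libraries and from 1814 to 3908 in A libraries. Cd14, which did not pass between the letters, alone held 712 to 1222 in B and 782 to 1355 in A libraries. Fibroblast markers, 16 of 20 measured, were higher in B for 7, such as Postn (4.44), and lower for 2, Fn1 (-2.24) and Fbln2 (-1.64), with sums of 74796 to 204727 in B and 320112 to 606997 in A libraries. Fn1 alone made up 59.5% to 83.5% of that sum in B and 88.5% to 93.2% in A libraries, and without it the sums overlapped, at 20010 to 71115 in B and 36729 to 47036 in A libraries. Endothelial and pericyte markers, 4 of 15 measured, were higher in B for 2 and lower for 1. The part of these cells in the keratin difference was not tested.

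**Figure D4:**
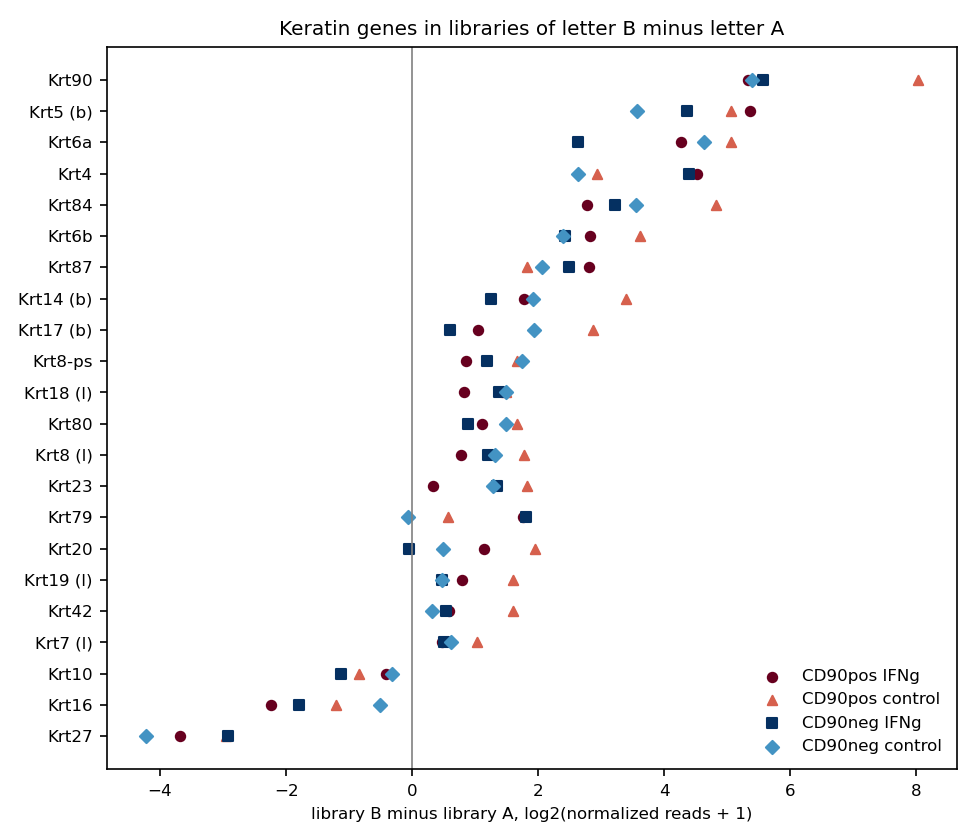
Library B minus library A in log2(normalized reads + 1) for the 22 keratin entries of the table, 1 mark per group, with the basal members marked b and the luminal members l. All 7 members lie right of 0 in all 4 groups, Krt5 furthest among them, and Krt27, Krt16 and Krt10 lie left of 0.

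The table held 15 other keratin entries, including the pseudogene Krt8-ps. Over all 22, 15 were higher in letter B and 3 lower, 81.8% of the entries against 36% of all genes. The 3 were Krt27 (-3.45), Krt16 (-1.44) and Krt10 (-0.68). Krt16 is the type I partner of Krt6a in stressed epidermis. Krt6a, a type II keratin induced in wounds, had 8545 (B) and 445 (A) normalized reads in CD90pos IFNg, 2303 and 67.9 in CD90pos control, 4065 and 654 in CD90neg IFNg, and 1198 and 47.3 in CD90neg control cells. It was higher with IFNg in every pair of libraries of 1 letter and population, by log2 differences of 1.89 (B) and 2.70 (A) in CD90pos and 1.76 and 3.76 in CD90neg cells. Krt6a passed with the letter block in CD90pos (log2 fold change 2.29, SE 0.52, adjusted p = 0.0201 with limma) and CD90neg cells (2.76, SE 0.52, 0.0344), but not without it (0.669 in CD90pos cells). Krt5 shares part of its 50-base words with Krt6a, as given above.

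With limma without the block, 0 of the 22 keratin entries passed in the comparisons between groups or in the interaction. The letters were compared only in fits with the block. With the block, 3 were higher and 1 lower with IFNg in CD90pos cells, 18.2% of the entries against 27.6% of all genes: Krt18, Krt6a and Krt6b (log2 fold change 2.40, adjusted p = 0.0265) higher and Krt27 (-2.36, 0.0388) lower. Both of these last had few reads, at most 51.9 normalized reads for Krt6b and 56.6 for Krt27. In CD90neg cells 1 was higher with IFNg, Krt6a (4.55% of the entries against 4.14% of all genes). Between CD90pos and CD90neg control cells, Krt5 and Krt20, a type I keratin known from gut and urothelium (2.11, adjusted p = 0.0362), were higher and Krt80 (-0.78, 0.0495) was lower in CD90pos cells, 13.6% of the entries against 11.2% of all genes. Krt20 had 1660 (B) and 429 (A) normalized reads in CD90pos control and 231 and 164 in CD90neg control cells. Between the IFNg groups 0 of the 22 passed with the block.

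Genes that act with keratins were counted over lists, to be read against the 4.21% of all genes that limma passed for IFNg in CD90pos cells and the 27.6% with the block. Of 15 measured genes of desmosomes and keratin attachment, limma passed 1 as higher and 1 as lower with IFNg in CD90pos cells, the junction gene Pkp4 (log2 fold change 1.04, adjusted p = 0.0325) and the desmosome-associated Perp (-1.11, 0.0471), and with the block 6 higher and 1 lower (46.7% of the list). Of 31 basal partners 1 was higher, Itgb4 (0.87, 0.0380), the integrin that links keratins to the basement membrane, and with the block 1 higher and 7 lower (25.8%, near the share of all genes). The basal partners' median log2 fold change was -0.42, against 0.01 over all genes. Of 25 measured transcription factors known to act on keratin genes 4 were higher, among them Irf1 (4.45, 0.0344), the receptor Notch1 (1.49, 0.0295) and Tfap2a (0.88, 0.0407). With the block 14 were higher and 0 lower (56%). Of 29 luminal genes 1 was higher, Ly6a (3.34, 0.0146), and with the block 8 higher and 1 lower (31%), both near the share of all genes. Of 17 genes of keratin binding and turnover 0 passed with limma with or without the block, those with the smallest p being Bag1 (-0.34), Stub1 (0.32) and Hspb1 (0.53).

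In CD90neg cells limma passed 1 gene of these lists with IFNg, Ly6a (3.35, adjusted p = 0.0155), and 0 of the attachment, basal and transcription factor lists. With the block, where 4.14% of all genes passed, 4 luminal genes were higher and 1 lower (17.2%), and 4 transcription factors higher (16%). Between the populations limma passed 0 members of any list. With the block in control cells, where 11.2% of all genes passed, 7 basal partners were higher and 1, Itgb4 (-0.53, adjusted p = 0.0446), lower in CD90pos cells (25.8% of the list). Attachment genes were higher for 1, Perp (0.88, 0.0376), and lower for 5, such as Pkp4 (-0.48, 0.0390) and Dsp (-0.49, 0.0396), the linker of desmosomes to keratin filaments (40% of the list). Transcription factors were lower for 4, such as Grhl2 (-0.72, 0.0288) and Sox9 (-0.66, 0.0422), and higher for 0 (16%). Between the IFNg groups 0 members of any list passed with the block. Of 8 measured other intermediate filament genes 0 passed between groups with limma with or without the block. Between the letters 3 were higher in B and 3 lower, 75% against 36% of all genes. Other-cell markers had 0 calls without the block in the 4 comparisons between groups. With it, 27.6% of all genes passed for IFNg in CD90pos cells. Of 16 measured fibroblast markers 1 was higher (Thy1) and 1 lower (Postn, -2.03), 12.5% of them. Leukocyte markers were 3 lower (37.5% of 8) and endothelial and pericyte markers 1 lower (25% of 4). Leukocyte sums were 943 and 1814 normalized reads (B and A) with IFNg against 1589 and 3908 in controls. Cd14, 1 of the markers that passed as lower (-0.79), alone held 712 to 1222 in the B and 782 to 1355 in the A libraries. The B sums thus rest largely on this gene. In CD90neg cells with IFNg Mcam, listed as a pericyte marker, was lower (-1.08, adjusted p = 0.0219), 25% of 4 measured markers against 4.14% of all genes. Over all libraries Mcam held 855 to 13808 normalized reads, whereas Rgs5, Cspg4 and Kcnj8 of the same list were absent from the deposited table. Between CD90pos and CD90neg control cells, where Krt5 passed, the fibroblast markers Thy1 (5.06, 0.0288), the gene of the sort marker, and Postn (2.67, 0.0288) were higher, as was Mcam (0.89, 0.0355), and 0 leukocyte markers passed. These were 12.5% of 16 fibroblast markers and 25% of 4 endothelial and pericyte markers, against 11.2% of all genes. The fibroblast share counts Thy1, whose difference between these populations was set by the sort itself, so it is no sign of fibroblasts. The part of these other cells in the keratin differences was not tested.

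The genes most like each member over the 8 libraries were named by Pearson's r of log2(normalized reads + 1), as a description. Krt5 was nearest to Arhgdib (0.991), Casq2 (0.986) and Htr1d (0.985), and Krt14 to Prc1 (0.986), Cnn2 (0.986) and Melk (0.985). Krt17 was nearest to Gadd45g (0.985), Pawr (0.984) and Gipc2 (0.977), Krt8 to Actg1 (0.998), Dcaf12 (0.992) and Specc1 (0.991), and Krt18 to Cep83 (0.994), Smagp (0.992) and Nlrx1 (0.991). Krt19 was nearest to Trabd (0.988), Cdkn2c (0.986) and Ncaph2 (0.982), and Krt7 to Prrc1 (0.992), Tnip1 (0.992) and Rbbp8nl (0.984). Among the members, the highest coefficients were 0.977 for Krt8 and Krt18 and 0.957 for Krt14 and Krt17, and the lowest was 0.587 for Krt5 and Krt7. The basal partners Krt5 and Krt14 had 0.847. All these values share the difference between the letters, which 4 and 4 libraries carry.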

How the data were processed

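The data are 1 table from the authors, whose values are a normalized signal per gene (reads scaled per library, never negative), with 12964 genes and 8 library columns. The submitters' processing notes name STAR and HTSeq and the build GRCm38, and how the values were normalized was not given in the sources used here. Each column held whole multiples of 1 step, so whole reads were recovered for 100% of values within 0.001. Counting error alone is 31.6% at 10 reads, and other error comes on top. Tests covered the 12962 genes that reached 10 normalized reads in 2 or more libraries, all 7 keratins among them, on log2(value + 1).

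The main test was limma 3.58.1 (R 4.3.3) with 4 group means over all 8 libraries and a variance trend, two-sided, with Benjamini-Hochberg adjustment over all genes tested. Residual degrees of freedom were 4 (2.06 prior), and 3 (3.77 prior) with the letter as a block. All adjusted p-values in the text are from limma unless another tool is named. edgeR 4.0.16 (quasi-likelihood, TMM) and DESeq2 1.42.0 on the recovered reads were alternatives, since the deposited values are not raw counts. For IFNg in CD90pos cells edgeR passed 419 genes and DESeq2 2042, against 546 with limma. The labels give each group an A and a B library. Libraries with the same letter deviated together: for each of 6 pairings of groups, the B minus A differences had a coefficient between 0.779 and 0.920. The main test nevertheless ignored the letter and did not pair libraries. An alternative fit took the letter as a block, and blocked values are given where they change a call. The pipeline was tested on simulated libraries that held no difference between the letters, so that test does not bear on the split by letter.

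Levels per kb used the longest GENCODE vM21 transcript; 12956 of 12964 identifiers matched. The members and the 10 gene lists were chosen with earlier results of these data known. Named are the members, every other gene whose symbol is Krt and a digit, the 3 genes most like each member, and from each list the genes passing or, where fewer than 3 pass, those of the smallest p, with examples where many pass. Protein sequences were not used here, and 1 listed gene and 1 motif are not reported here.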

Additional observations from a re-analysis of the deposited data

Results flagged for a closer look

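Krt7 was singled out because its libraries moved in opposite directions in the populations. With IFNg it was higher in CD90pos cells within both letters (log2 differences 0.05 within B and 0.60 within A) and lower in CD90neg cells within both (-0.25 and -0.13). The same numbers give CD90pos minus CD90neg differences of 0.00 and 0.03 with IFNg and of -0.30 and -0.70 in control cells. The difference between the effects was 0.52 on the log2 scale. As an interaction in limma it did not pass (adjusted p = 0.387 with the letter block), and each effect rests on 2 pairs of libraries. The basal to luminal difference with each gene counted equally also moved in opposite directions with IFNg, lower within both letters in CD90pos cells (-0.38 within B and -0.08 within A) and higher within both in CD90neg cells (0.18 and 0.48). The effects differed by -0.56, and this difference was not tested. It was seen with this weighting only. The summed ratio moved the same way in both populations, lower within B (-0.80 in CD90pos, -0.68 in CD90neg) and higher within A (0.17 and 0.41). In the summed ratio without Krt17, the CD90neg cells were lower with IFNg within both letters (-0.55 within B and -0.11 within A).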

How the results depend on the processing

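The letter block decided the calls. Without the block 0 members passed in the 5 comparisons, and with the replicate block 1 passed for IFNg in CD90pos cells (Krt18) and 1 for CD90pos against CD90neg control cells (Krt5); taking the block out of those fits gave 0 in both. The block changed no other call of a member. With the block and 1 library left out, the count lay between 0 and 4 for IFNg in CD90pos cells and between 0 and 2 for the control comparison. Pseudocounts of 0.5 and 5, quantile normalization and median centring kept both blocked calls and all 7 letter calls. Filters, scalings, the variance trend, edgeR and DESeq2 gave 0 members in the 5 comparisons without the block. Small differences changed sign with the tool: with edgeR and DESeq2, IFNg in CD90pos cells gave 0.050 and 0.032 for Krt5, -0.14 and -0.16 for Krt14 and -0.091 and -0.10 for Krt17, IFNg in CD90neg cells gave -0.058 and -0.077 for Krt17, and the control comparison gave 0.38 and 0.37 for Krt14. Quantile normalization gave -0.16 for Krt7 between the IFNg groups. As the mean of log2 values, in which each gene counts equally, the basal to luminal difference was 1.33 for the control comparison and 1.75 for B minus A, above 0.60 and 0.54 with summed reads. The cause was not tested in these cases.

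Leaving out 1 library without the block unbalances the letters, and log2 differences then crossed 0 for members not called. For IFNg in CD90pos cells, Krt5 lay between -2.79 and 2.57, Krt14 between -1.28 and 2.12, Krt17 between -1.01 and 1.86, Krt8 between -0.22 and 1.56, Krt19 between -0.82 and 0.78 and Krt7 between -0.19 and 0.84. For IFNg in CD90neg cells, Krt5 lay between -1.10 and 3.27, Krt14 between -1.09 and 0.83, Krt17 between -0.77 and 1.16, Krt8 between -0.48 and 0.84, Krt18 between -0.27 and 1.21 and Krt7 between -0.50 and 0.12. For CD90pos minus CD90neg in control cells, Krt14 lay between -1.85 and 1.54, Krt17 between -1.07 and 1.80, Krt8 between -1.18 and 0.60, Krt18 between -0.98 and 0.51, Krt19 between -1.11 and 0.48 and Krt7 between -1.01 and 0.0095. For CD90pos minus CD90neg with IFNg, Krt5 lay between -1.09 and 4.27, Krt14 between -0.49 and 1.28, Krt8 between -0.40 and 0.80, Krt18 between -0.48 and 0.89, Krt19 between -0.48 and 0.31 and Krt7 between -0.23 and 0.27. For the interaction, Krt5 lay between -3.87 and 1.48 and Krt14 between -1.15 and 2.25. Depth did not limit these genes, since the lowest member value was 94.7 normalized reads against a floor of at most 3.37.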
